A study of Mus musculus with 12 samples.

Results

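The signal recognition particle (SRP) genes are the 10 rows of the deposited expression table, of 20540 genes in all, whose symbols are Srp54a, Srp54b, Srp54c, Srp9, Srp14, Srp19, Srp68, Srp72, Srpr and Srprb. They were chosen by symbol: 3 copies of the gene for the SRP54 GTPase subunit, 5 genes for the other SRP proteins and 2 genes for the SRP receptor. The set was drawn up with results of these libraries known, because Srp54b had stood out between the mimics in both kinds of RNA. For the 3 Srp54 copies and their sum, every contrast between the mimics is therefore given as a description, with its standard error and no test. The other 7 genes were tested throughout, and all 10 were tested between pulldown and whole-cell RNA averaged over both mimics, a contrast to which a difference between the mimics does not contribute.

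Oligodendrocyte progenitor cells (OPCs), the dividing glial cells that give rise to myelinating oligodendrocytes, came from C57BL/6 mouse brain at an age labelled post natal day 6-7 and were grown in SATO+PDGFRA medium. All cultures received a biotin-tagged microRNA mimic, a synthetic RNA that stands in for a mature microRNA, and there was no untransfected group. The 4 groups of 3 libraries were pulldown RNA under the miR-27a mimic, pulldown RNA under the control mimic, whole-cell RNA under the miR-27a mimic and whole-cell RNA under the control mimic. Pulldown RNA is the RNA recovered with the biotin tag. The control mimic's sequence is not stated. Nor is it stated whether replicates are separate cultures, or whether pulldown and whole-cell RNA share cultures, so the spread behind each p-value may be technical.

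The SRP recognises the signal sequence of a secreted or membrane protein as it leaves the ribosome, slows translation and brings the ribosome to the endoplasmic reticulum (ER). Its protein SRP54 is the GTPase that binds the signal sequence and then the SRP receptor, after which the growing chain enters the Sec61 translocon. Oligodendrocyte lineage cells make large amounts of membrane proteins such as myelin-associated glycoprotein, which are inserted at the ER.

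In the annotation of the build the authors used (GENCODE M21, GRCm38), the 3 copies lay in a row on the plus strand of chromosome 12: Srp54a (ENSMUSG00000073079) at chr12:55080262-55115367, Srp54b (ENSMUSG00000112449) at chr12:55155104-55189573 and Srp54c (ENSMUSG00000079108) at chr12:55230168-55263836. Their coding sequences were all 1515 bases long. Those of Srp54a and Srp54b were identical, and that of Srp54c differed from both at 6 positions. The stretches below hold those 6 positions, because the coding sequences of the copies are alike everywhere else, and they set apart Srp54c alone. They run 5′ to 3′ on the sense strand, and capitals mark the bases that differ between Srp54c and the other 2 copies, at the coding positions named, counted from 1 at the start codon.
Srp54a and Srp54b, position 501: tatactgaaatggaTcctgtcatcattgc
Srp54c, position 501: tatactgaaatggaCcctgtcatcattgc
Srp54a and Srp54b, positions 945 and 946: aagttggatgataaTGaggcacttataga
Srp54c, positions 945 and 946: aagttggatgataaCAaggcacttataga
Srp54a and Srp54b, position 965: acttatagagaagtTgaagcacggtcagt
Srp54c, position 965: acttatagagaagtGgaagcacggtcagt
Srp54a and Srp54b, position 1197: gttttcagtaagcaAccagggagaatcca
Srp54c, position 1197: gttttcagtaagcaTccagggagaatcca
Srp54a and Srp54b, position 1249: tgtcaacaagagatGttcaagaacttctg
Srp54c, position 1249: tgtcaacaagagatAttcaagaacttctg

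Over whole annotated transcripts, Srp54b and Srp54c differed at 6 of 3642 aligned bases and Srp54a and Srp54b at 11 of 3640. Every stretch of 100 bases, the read length given in the series' design text, was compared between 1 transcript of each gene and the transcripts of all other annotated genes. In Srp54b only 58 of 3547 such windows (1.64%) occurred in no other gene, and all 58 lay wholly after the coding sequence. Srp54c had 372 of 3543 (10.5%), all touching its coding sequence, and Srp54a had 1229 of 4399 (27.9%). Of the Srp54b windows, 3116 were also in Srp54a and 3117 were also in Srp54c. How the authors' counting treated reads that match several copies is not stated, so the division of reads among the copies is uncertain and their sum is given beside them.

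**Figure D1:**
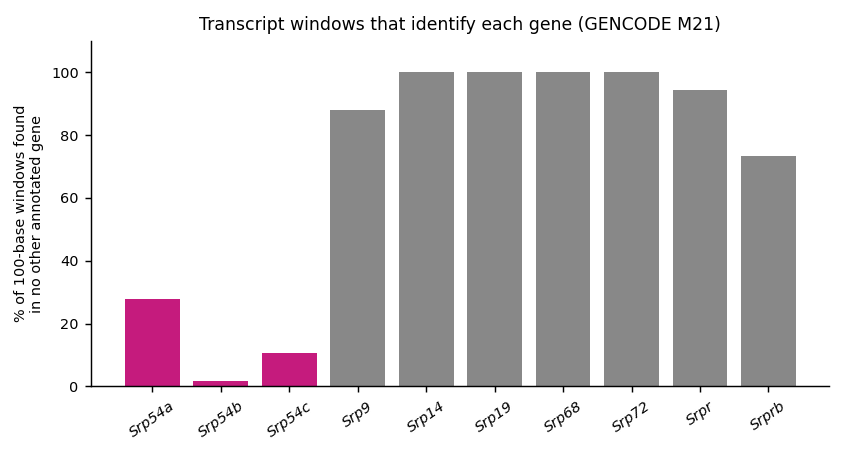
Share of 100-base transcript windows found in no other annotated gene, in percent, for each of the 10 genes (bars; magenta for the Srp54 copies). Srp54b has 1.64% and Srp54c 10.5%, whereas Srp14, Srp19, Srp68 and Srp72 have 100%.

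Outside the copies, Srp14, Srp19, Srp68 and Srp72 had no window in another gene. Srprb shared 789 of 2965 windows with Gm20425, which left 73.4% of its own. Srp9 kept 87.8% beside Gm13736, and Srpr kept 94.4% beside Gm6733.

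The mature miR-27a-3p in RefSeq (GRCm38.p6, chr8:84208727-84208747, plus strand) is shown because its seed, bases 2 to 8 in capitals, defines the sites searched for in these genes.
mmu-miR-27a-3p: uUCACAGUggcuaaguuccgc

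A seed site was ACTGTGAA (8mer), ACTGTGA or CTGTGAA on the sense strand of a gene's longest 3′ UTR in the same annotation, the 7mers being parts of the 8mer. Of the 10 genes, only Srp19 held such a site, a single CTGTGAA in a 3′ UTR of 367 bases. Of the 1404 genes with a 3′ UTR of similar length, 9.7% held a site, and of all 15561 genes with a 3′ UTR, 27.9% did. The 3 Srp54 copies held none in 3′ UTRs of 2476, 1622 and 1618 bases for Srp54a, Srp54b and Srp54c. A match is a description of these letters and not a measured binding site.

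The libraries held 19995638 to 21899644 assigned reads in pulldown miR-27a, 16341932 to 24972188 in pulldown control, 17441375 to 19106007 in whole-cell miR-27a and 15548418 to 17591426 in whole-cell control RNA. A gene with 0 reads in a library may have had up to 0.116 to 0.2 CPM there (CPM, counts scaled by the authors to library size), the value of 3 reads. On the first principal component, with 65.3% of the variance, pulldown and whole-cell libraries separated. Pulldown control replicate 1 lay farthest from 0 on the second component, with 14.4%. Pulldown miR-27a replicate 2 lay farthest out on the third, with 5.4%. The 6 OPC markers (Pdgfra, Cspg4, Olig1, Olig2, Sox10 and Ptprz1) were all present. They summed to 2552 to 3133 CPM in pulldown and 1195 to 1261 CPM in whole-cell libraries. Sox10 did not follow the sum, at 44.5 to 60.8 CPM in pulldown and 56.1 to 61.6 CPM in whole-cell libraries. Of the oligodendrocyte markers, Mbp measured 434 to 848 CPM in pulldown and 2338 to 2985 CPM in whole-cell libraries, Cnp 1164 to 1722 CPM in pulldown and 2662 to 2889.5 CPM in whole-cell libraries, and Mag 214 to 459 CPM in pulldown and 733 to 848 CPM in whole-cell libraries. Mog was at 6.11 to 15.2 CPM in pulldown and 14.4 to 16.0 CPM in whole-cell libraries. Astrocyte markers (5 genes) summed to 2913 to 4231 CPM in pulldown and 5415 to 6499 CPM in whole-cell libraries. Slc1a2 did not follow that sum. Under control mimic it was at 348 to 372 CPM in pulldown and 278 to 289 CPM in whole-cell libraries. Under miR-27a its ranges overlapped, at 199 to 233 CPM in pulldown and 199 to 204 CPM in whole-cell libraries. Microglial markers summed to at most 17.8 CPM in any library, and neuronal and vascular or fibroblast markers to at most 197 and 87.5 CPM. Every one of these markers had reads in some library. The vascular marker Cldn5 reached at most 0.128 CPM and was at 0 in some library of every group. The microglial marker Aif1 was at 0 in some pulldown control RNA. The X-linked Xist measured 315 to 407 CPM in pulldown and 95.0 to 119 CPM in whole-cell libraries, and the Y-linked Ddx3y 24.7 to 41.6 CPM in pulldown and 121 to 133 CPM in whole-cell libraries. The part of these differences in the contrast of pulldown with whole-cell RNA was not tested, and in bulk RNA fewer cells of a type cannot be told apart from less RNA per cell.

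Srp54b showed opposite differences between the mimics in the pulldown and in whole-cell RNA. In pulldown RNA it measured 14.6, 12.8 and 9.78 CPM under miR-27a, against 5.15, 2.51 and 8.03 CPM under control mimic. In whole-cell RNA it measured 6.57, 2.49 and 2.42 CPM under miR-27a, against 18.9, 6.09 and 11.1 CPM under control mimic. The pulldown groups did not overlap, with every miR-27a library above every control library. The whole-cell groups overlapped, since miR-27a replicate 1 lay above control replicate 2. The log2 difference, miR-27a minus control on the log2(CPM + 1) scale, was 1.19 ± 0.25 (SE) in pulldown RNA and -1.41 ± 0.26 in whole-cell RNA.

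Srp54c, the copy with the most reads in 11 of the 12 libraries, gave small differences between the mimics. It measured 14.6, 17.9 and 15.6 CPM under miR-27a and 18.1, 17.1 and 15.2 CPM under control mimic in the pulldown, and 30.8, 33.2 and 27.3 CPM under miR-27a and 31.9, 32.1 and 32.7 CPM under control mimic in whole-cell RNA. The log2 difference was -0.06 ± 0.12 in pulldown and -0.08 ± 0.07 in whole-cell RNA. In pulldown miR-27a replicate 1, Srp54c and Srp54b had the same 303 reads.

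Srp54a measured 4.18, 5.36 and 6.10 CPM under miR-27a and 6.11, 4.83 and 4.76 CPM under control mimic in the pulldown. In whole-cell RNA it measured 9.43, 7.87 and 9.96 CPM under miR-27a and 6.12, 7.16 and 8.54 CPM under control mimic, and both pairs of groups overlapped. The log2 difference was -0.01 ± 0.16 in pulldown RNA and 0.29 ± 0.12 in whole-cell RNA, in the direction opposite to that of Srp54b in whole-cell RNA. Without whole-cell control replicate 1 the whole-cell value was 0.19, and with library totals the pulldown value turned to 0.0108.

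Summed over the copies, the difference between the mimics was smaller than in Srp54b alone. The sum was 33.3, 36.1 and 31.5 CPM under miR-27a and 29.4, 24.4 and 28 CPM under control mimic in the pulldown, and every miR-27a library was above every control library. In whole-cell RNA it was 46.8, 43.6 and 39.7 CPM under miR-27a and 56.9, 45.4 and 52.3 CPM under control mimic, and the groups overlapped. The log2 difference of the sum was 0.30 ± 0.10 in pulldown and -0.24 ± 0.07 in whole-cell RNA. With Srp54b left out of the sum, it was -0.05 ± 0.11 in pulldown and 0.00 ± 0.06 in whole-cell RNA.

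**Figure D2:**
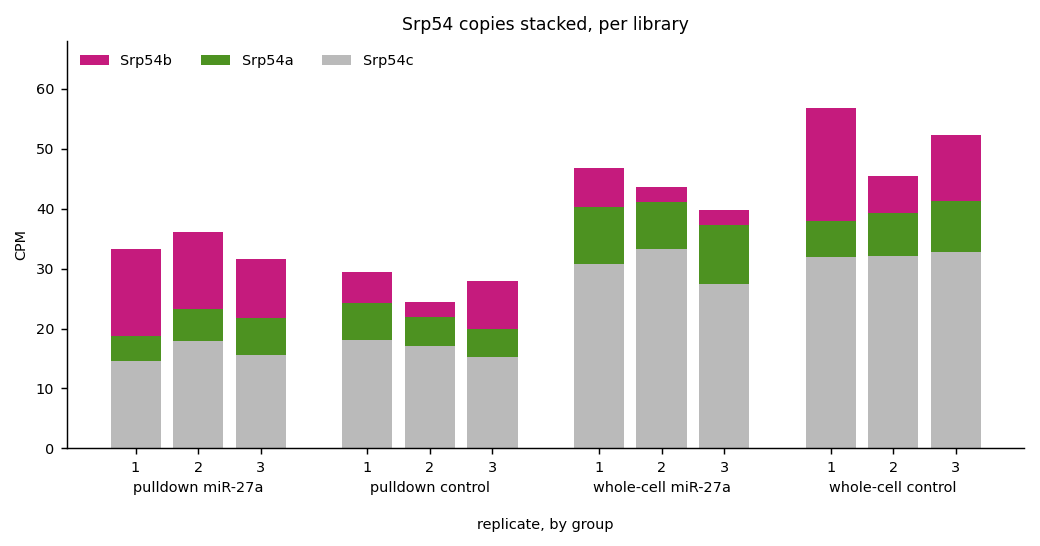
CPM of Srp54c (grey), Srp54a (green) and Srp54b (magenta) stacked for each of the 12 libraries, in 4 groups of 3. Within pulldown libraries Srp54b spans 2.51 to 14.6 CPM and within whole-cell libraries 2.42 to 18.9 CPM, while Srp54c stays between 14.6 and 18.1 CPM in pulldown and between 27.3 and 33.2 CPM in whole-cell libraries.

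As a share of the reads assigned to the 3 copies, Srp54b took 31.0 to 43.7% in pulldown miR-27a libraries, 10.3 to 28.7% in pulldown control, 5.71 to 14% in whole-cell miR-27a and 13.4 to 33.2% in whole-cell control. Srp54c took 43.7 to 49.6%, 54.3 to 69.98%, 65.8 to 76.2% and 56.0 to 70.8% of them in the same order of groups. The shares of Srp54a ran from 10.8 to 25.1% over the 12 libraries.

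Replicates of 1 group differed for Srp54b by more than counting error. In whole-cell control RNA, replicate 1 had 296 reads, or 18.9 CPM with an exact 95% Poisson interval of 16.8 to 21.1, and replicate 2 had 103 reads, or 6.09 CPM with an interval of 4.97 to 7.39. These intervals cover counting error only. The highest over the lowest replicate was 1.49 in pulldown miR-27a, 3.20 in pulldown control, 2.72 in whole-cell miR-27a and 3.10 in whole-cell control RNA. For Srp54c this ratio was at most 1.23.

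The standard deviation of log2(CPM + 1) within groups, pooled over the 4 groups, was 0.617 for Srp54b. It exceeded that of 99.95% of the 13875 genes tested, with 6 genes higher, and the median over all genes was 0.122. Srp54a had 0.195, Srp54c 0.116 and the sum of the copies 0.129. Among the other members it ran from 0.0548 for Srp72 to 0.137 for Srpr, so no other member came near the spread of Srp54b.

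**Figure D3:**
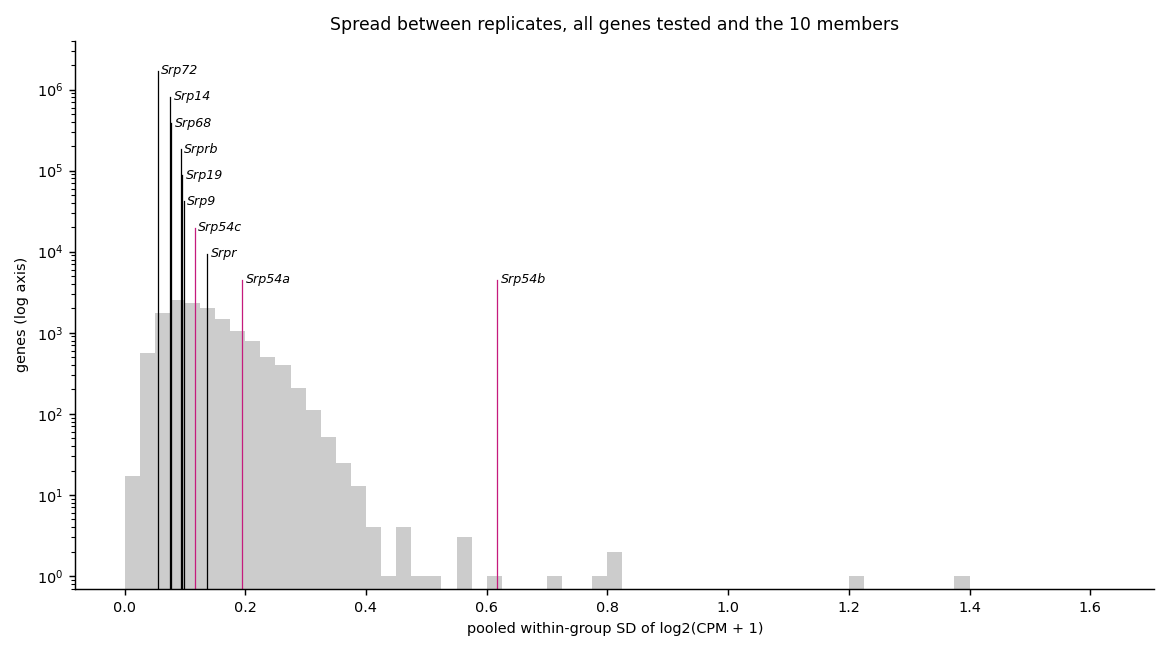
Histogram of the pooled within-group SD of log2(CPM + 1) over 13875 genes, with gene counts on a log axis. Vertical lines mark the 10 genes (magenta for the Srp54 copies; line heights carry no value), and Srp54b at 0.617 stands to the right of all the others, of which Srp54a is the highest at 0.195.

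Set beside the rest of the SRP by length, Srp54a and Srp54b, each taken singly, had the lowest levels. In CPM per kilobase of transcript, Srp54a and Srp54b held the lowest ranks in every group, at 1.16 and 3.40 in pulldown miR-27a, 1.16 and 1.44 in pulldown control, 2.02 and 1.05 in whole-cell miR-27a and 1.62 and 3.30 in whole-cell control RNA. Srp54b was below Srp54a in whole-cell miR-27a RNA and above it in the other 3 groups. Their ranges overlapped in pulldown control and in both whole-cell groups, and did not in pulldown miR-27a RNA. Srp54c stood above them at 4.40, 4.61, 8.36 and 8.85 CPM per kilobase in the same order of groups. Srp14, which with Srp9 forms the part of the particle that slows translation, was highest throughout, at 124, 139, 164 and 174 CPM per kilobase, followed by Srp9 at 65.5 to 69.2. Srp19 and Srprb came next, with Srprb above Srp19 in the pulldown groups and Srp19 above Srprb in the whole-cell groups. In pulldown control RNA the ranges of Srprb and Srp19 overlapped. Srp68 and Srp72 followed at 12.5 to 21.5, and Srpr at 8.63 to 13.0 CPM per kilobase. The ranges of Srp68, Srp72 and Srpr overlapped with their neighbours in both pulldown groups, and that of Srpr with Srp54c in both whole-cell groups. Summed per kilobase over the 3 copies, the level averaged 8.96 in pulldown miR-27a, 7.21 in pulldown control, 11.4 in whole-cell miR-27a and 13.8 in whole-cell control RNA. The sum was thus below the mean of Srpr in both pulldown groups, at 13.0 and 12.9, and above it in both whole-cell groups, at 8.91 and 8.63. Whether reads that match several copies were left out of the counts is not stated, which touches the sum as well as each copy.

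Between the mimics in whole-cell RNA, 24.9% of the 13393 genes tested passed an adjusted p of 0.05 (limma on log2(CPM + 1), two-sided, Benjamini-Hochberg over all genes), 13% higher and 11.9% lower. Of the 7 members outside the copies, 1 passed, Srp19, which was lower. Srp19 encodes the protein that binds the SRP RNA and is needed for SRP54 to join it. It measured 46.2, 44.7 and 44.1 CPM under miR-27a, against 55.0, 52.0 and 50.3 CPM under control mimic, so that every miR-27a library was below every control library. The log2 change was -0.21 ± 0.05, or 0.862 times (adjusted p = 0.00415). With all 12 libraries in 1 fit the adjusted p was 0.0989, and the call was lost.

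The marker sums of other cell types also differed between the mimics. In whole-cell RNA the astrocyte markers summed to 5415 to 5464 CPM under miR-27a and 6467 to 6499 CPM under control mimic, and the vascular or fibroblast markers to 33.9 to 37.4 CPM under miR-27a and 61.3 to 71.6 CPM under control mimic. Of the latter, Acta2 measured 13.8 to 16.4 CPM under miR-27a and 40.2 to 49.8 CPM under control mimic. Pdgfrb measured 6.75 to 8.10 CPM under miR-27a and 9.17 to 10.1 CPM under control mimic. The ranges of Dcn, Pecam1, Cldn5 and Col1a1 overlapped. Neuronal markers summed to 173 to 197 CPM under miR-27a and 127 to 148 CPM under control mimic, but did not move alike. Tubb3 measured 146 to 169 CPM under miR-27a and 93.3 to 114 CPM under control mimic. Snap25 went the other way, at 20.0 to 22.5 CPM under miR-27a and 27.2 to 29.1 CPM under control mimic. The ranges of Syt1, Rbfox3 and Slc17a7 overlapped. Microglial markers summed to 11.7 to 13.0 CPM under miR-27a and 14.7 to 17.8 CPM under control mimic. In pulldown RNA the astrocyte markers summed to 2913 to 3134 CPM under miR-27a and 4075 to 4231 CPM under control mimic, and Mbp alone measured 434 to 450 CPM under miR-27a and 725 to 848 CPM under control mimic. The vascular or fibroblast markers summed there to 64.6 to 70.5 CPM under miR-27a and 83.2 to 87.5 CPM under control mimic. Among them Dcn went the other way, at 40.0 to 48.6 CPM under miR-27a and 36.0 to 38.5 CPM under control mimic. The neuronal markers summed there to 128 to 150 CPM under miR-27a and 108 to 119 CPM under control mimic. Tubb3 was again higher, at 112 to 136 CPM under miR-27a and 85.9 to 97.3 CPM under control mimic. Snap25 was again lower, at 6.93 to 8.57 CPM under miR-27a and 13.6 to 15.75 CPM under control mimic. The OPC markers summed to 1232 to 1261 CPM under miR-27a and 1195 to 1232 CPM under control mimic in whole-cell RNA. Within that sum Pdgfra was lower, at 490 to 510 CPM under miR-27a and 551 to 560 CPM under control mimic. Olig1 was higher, at 171 to 195 CPM under miR-27a and 131 to 148 CPM under control mimic, and so was Olig2. In pulldown RNA the OPC markers summed to 2846 to 3133 CPM under miR-27a and 2552 to 2590 CPM under control mimic. The part of these differences in the contrasts between the mimics was not tested.

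Srp14 measured 129, 132 and 131 CPM under miR-27a and 139, 137 and 142 CPM under control mimic in whole-cell RNA. Its groups did not overlap either, but the log2 difference of -0.09 ± 0.04 did not pass (adjusted p = 0.0881). The remaining 5 gave log2 differences between -0.07 for Srp9 and 0.04 for Srpr, with adjusted p-values from 0.339 to 0.986. Among these 5, the narrowest 95% interval was that of Srprb, the membrane-anchored receptor subunit, at -0.08 to 0.08. The median of the 7 was -0.02, beside 0.01 over all genes tested.

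In pulldown RNA, 13.1% of 13586 genes passed between the mimics, 6.05% higher and 7.06% lower, and 0 of the 7 members did. At an unadjusted p under 0.05 the count was also 0, and limma voom and the other alternatives run gave no call for any of the 7. With the replicate number as a block, 1 of the 7 had an unadjusted p under 0.05, Srp14 (limma, unadjusted p = 0.0181, adjusted p = 0.0759). Srp14, Srp19 and Srprb were each lower under miR-27a in 3 of 3 same-numbered pairs. The shares of all genes under that unadjusted p with the block, or lower in 3 of 3 pairs, were not computed, so these counts are only descriptions. With the block Srp19 and Srprb did not pass either (limma, adjusted p = 0.229 and 0.303). Without the block the smallest p was that of Srp14 (limma, unadjusted p = 0.0722, adjusted p = 0.238). Srp14 measured 108, 90.7 and 98.3 CPM under miR-27a and 119, 106 and 109 CPM under control mimic, with overlapping groups and a log2 difference of -0.17 ± 0.09. Srp19 gave -0.14 ± 0.10 (adjusted p = 0.411), with a 95% interval of -0.36 to 0.07 that includes its whole-cell value. Adjusted p-values of the other 5 ran from 0.559 to 0.933. Same-numbered replicates deviated together in the pulldown, and with the replicate number as a block 2743 genes passed in place of 1781.

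The difference between the mimics' contrasts of pulldown with whole-cell RNA is here called the capture difference. It can be read as recovery for a transcript's level in the cells only if both kinds of RNA came from like cultures. Whether they did is not stated, and Xist and Ddx3y differed between pulldown and whole-cell libraries. Over all genes 1.07% passed, and 0 of the 7 members did, with adjusted p-values from 0.728 to 0.975 and log2 values between -0.09 for Srprb and 0.09 for Srp72. The limma count at an unadjusted p under 0.05 was 0 as well, and limma voom called none of the 7. For the copies the capture difference is made from the contrasts that chose them and is only described: 2.60 ± 0.49 for Srp54b, -0.30 ± 0.20 for Srp54a, 0.02 ± 0.13 for Srp54c and 0.54 ± 0.13 for their sum. Srp54b was higher in pulldown than in whole-cell RNA under miR-27a, by 1.56 ± 0.35, and lower under control mimic, with a value of -1.04 ± 0.35.

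Pulldown RNA held less of most SRP messages and more of both receptor messages. Averaged over both mimics, 72.3% of 13875 genes passed between pulldown and whole-cell RNA, 36.4% higher and 35.9% lower, so a call in this contrast is common. Of the 10 members, 6 were lower, 2 were higher, and Srp54b and Srp9 did not pass. The 6 that fell were Srp54a, Srp54c, Srp14, Srp19, Srp68 and Srp72, and the 2 that rose were Srpr and Srprb.

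Srp54c fell most, by 0.90 ± 0.07 on the log2 scale (adjusted p = 8.74e-10), to 0.538 times its whole-cell level, and its 6 pulldown libraries all lay below its 6 whole-cell libraries. Srp54a fell by 0.56 ± 0.10 (adjusted p = 7.85e-05). For Srp54b the value was 0.26 ± 0.24 (adjusted p = 0.348), with a 95% interval from -0.25 to 0.77, in which the opposite contrasts under the mimics are averaged. The sum of the copies fell by 0.62 ± 0.07 (adjusted p = 8.89e-08), to 0.649 times. With Srp54a and Srp54b alone in the sum the value was -0.19 ± 0.14 and did not pass (adjusted p = 0.227).

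Srp68 and Srp72, which bind each other and are the largest proteins of the particle, both fell. Srp68 measured 38.8, 37.3 and 33.5 CPM in pulldown miR-27a and 36.0, 35.7 and 40.1 CPM in pulldown control, against 51.2, 55.5 and 55.9 CPM in whole-cell miR-27a and 53.9, 53.9 and 53.3 CPM in whole-cell control RNA. Every pulldown library was below every whole-cell library, and the log2 change was -0.54 ± 0.05 (adjusted p = 2.61e-08). Srp72 measured 44.4 to 49.9 CPM in pulldown and 60.0 to 64.6 CPM in whole-cell libraries, a change of -0.42 ± 0.05 (adjusted p = 1.44e-07). Srp19 fell by 0.41 ± 0.06 (adjusted p = 2.81e-06), with 31.3 to 41.6 CPM in pulldown and 44.1 to 55.0 CPM in whole-cell libraries.

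The partners Srp9 and Srp14 did not move alike. Srp14 measured 90.7 to 119 CPM in pulldown and 129 to 142 CPM in whole-cell libraries and fell by 0.36 ± 0.05 (adjusted p = 1.17e-06). Srp9 measured 91.9, 96.0 and 89.1 CPM in pulldown miR-27a and 86.8, 103 and 92.7 CPM in pulldown control, against 92.2, 91.3 and 85.2 CPM in whole-cell miR-27a and 104, 92.0 and 87.4 CPM in whole-cell control RNA. Its values overlapped in all 4 groups, and the log2 difference was 0.02 ± 0.05, with a 95% interval of -0.09 to 0.13 (adjusted p = 0.759).

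The ratios within the 3 pairs of partner proteins, a test added after the values were seen, were compared between pulldown and whole-cell libraries with an exact two-sided permutation test within each mimic (6 against 6 libraries, 400 arrangements, smallest possible p = 0.005). The libraries are those of the contrasts above, so these p-values add no separate support to them. The CPM of Srp9 over that of Srp14 averaged 0.889 in pulldown and 0.681 in whole-cell RNA (exact p = 0.01, adjusted over the 3 pairs p = 0.03). Its ranges of 0.731 to 1.06 in pulldown and 0.618 to 0.751 in whole-cell RNA overlapped slightly. Srp68 over Srp72 averaged 0.794 in pulldown and 0.864 in whole-cell RNA, with slightly overlapping ranges of 0.746 to 0.858 and 0.832 to 0.932 (exact p = 0.02, adjusted p = 0.03). Srpr over Srprb averaged 0.261 in pulldown and 0.251 in whole-cell RNA, a difference that did not pass (exact p = 0.43, adjusted p = 0.43). These ratios are not corrected for transcript length, so only their difference between the kinds of RNA can be read.

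Both receptor genes rose. Srpr encodes the GTPase subunit that docks the particle, and measured 43.1, 35.3 and 38.5 CPM in pulldown miR-27a and 43.8, 36.7 and 34.9 CPM in pulldown control, against 29.7, 26.6 and 23.7 CPM in whole-cell miR-27a and 26.6, 25.5 and 25.4 CPM in whole-cell control RNA. All pulldown libraries were above all whole-cell libraries, and the log2 change was 0.54 ± 0.07, or 1.46 times (adjusted p = 1.18e-06). Srprb, the subunit that anchors the receptor in the ER membrane, measured 158, 129 and 144 CPM in pulldown miR-27a and 162, 139.8 and 158 CPM in pulldown control, against 103 to 105 CPM in whole-cell miR-27a and 102 to 106 CPM in whole-cell control RNA. Its log2 change was 0.50 ± 0.05, or 1.42 times (adjusted p = 4.95e-08).

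For the 7 genes outside the copies, the contrast of pulldown with whole-cell RNA had the same direction and the same call under each mimic, apart from Srp9, whose value was 0.04 ± 0.07 under miR-27a and -0.01 ± 0.07 under control mimic and passed in neither. Srp54c gave -0.89 ± 0.09 under miR-27a and -0.90 ± 0.09 under control mimic, and Srp54a -0.70 ± 0.14 and -0.41 ± 0.14 in the same order. The sum gave -0.36 ± 0.09 under miR-27a and -0.89 ± 0.09 under control mimic.

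**Figure D4:**
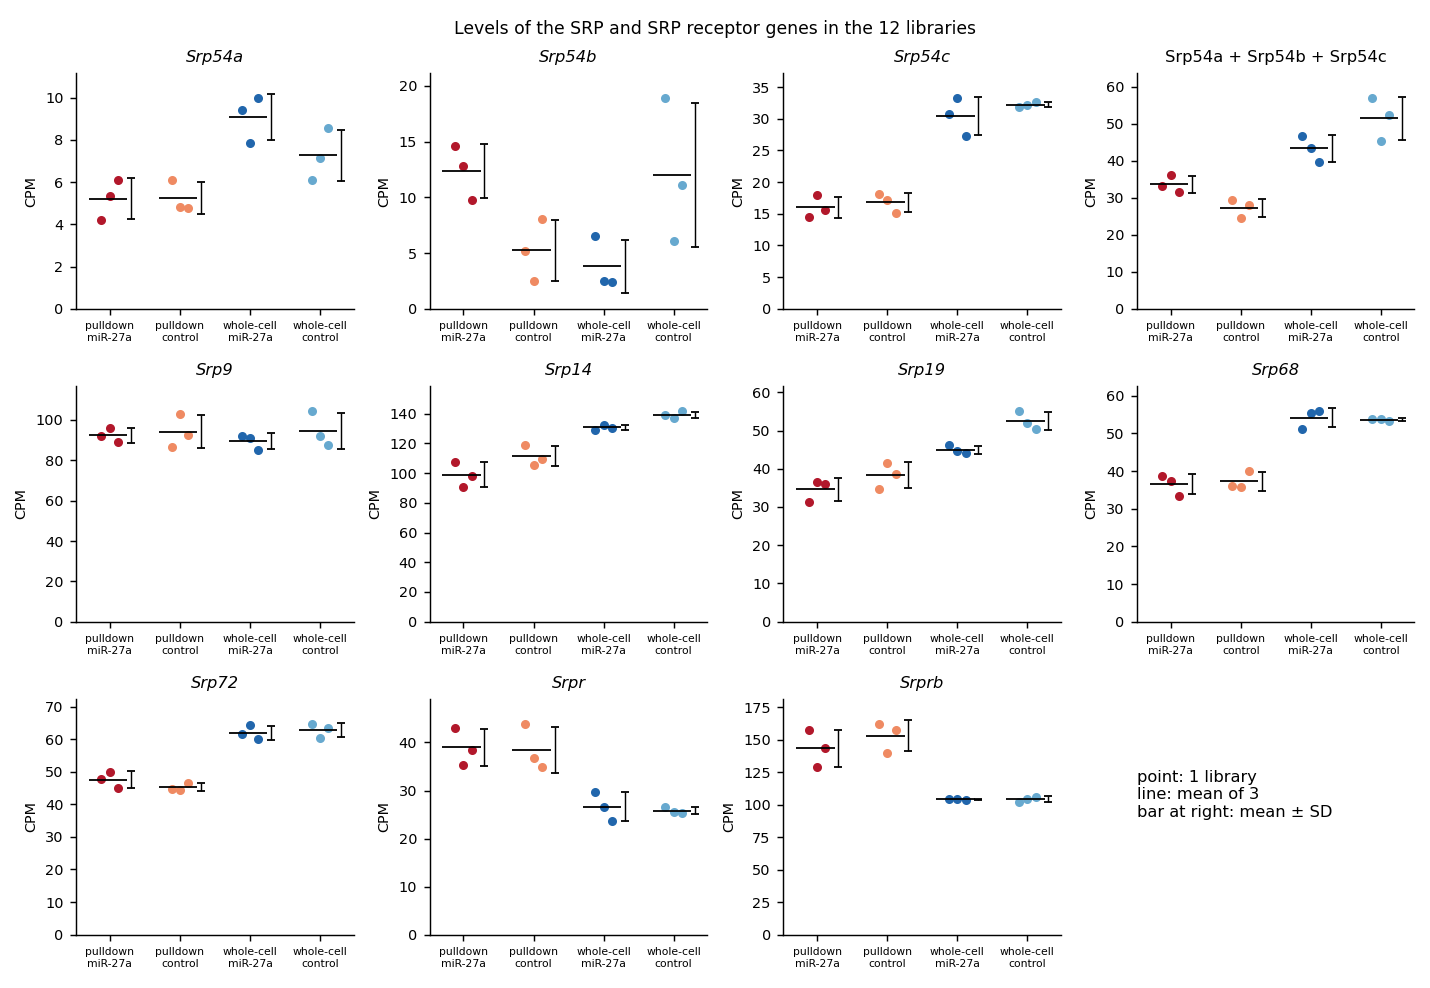
CPM of the 10 genes and of the sum of the Srp54 copies in each of the 12 libraries (points), with the group mean (line) and mean ± SD (bar, n = 3), on axes that start at 0. Pulldown libraries lie below whole-cell libraries for Srp54c, Srp14, Srp19, Srp68 and Srp72 and above them for Srpr and Srprb, and the groups of Srp54b follow neither pattern.

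The genes that act after or beside the SRP were taken from 7 lists, of which the SRP RNA genes were not analysed here. Of 38 tested genes on the other 6 lists, 26 were higher and 11 lower in pulldown than in whole-cell RNA, beside 36.4% and 35.9% of all genes, and their median was 0.35 beside 0.00 over all genes. The 5 signal peptidase genes, whose products cut off signal sequences, all rose, among them Spcs2 by 0.63 ± 0.04 (adjusted p = 3.17e-10) and Sec11a by 0.61 ± 0.04 (adjusted p = 6.12e-10). All 4 genes of the translocon-associated protein complex rose, led by Ssr2 at 0.67 ± 0.06 and Ssr1 at 0.34 ± 0.04. Of the 11 oligosaccharyltransferase genes, which encode the enzyme that attaches N-glycans to entering chains, 9 rose and 2 fell. The 2 that fell were Magt1, with -0.45 ± 0.06, and Ost4, with -0.24 ± 0.05, the latter named after its value was seen. The catalytic subunit Stt3b averaged 282 ± 15.5 and 260.2 ± 10.8 CPM in pulldown miR-27a and pulldown control, against 186 ± 5.30 and 183 ± 0.235 CPM in whole-cell miR-27a and whole-cell control RNA (SD, n = 3 each), and Ddost rose by 0.70 ± 0.06.

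Among 8 tested translocon genes and helpers, 5 rose and 3 fell. Hspa5, the main ER chaperone, rose by 0.45 ± 0.04 (adjusted p = 1.03e-08) and Tram1 by 0.42 ± 0.04. The 3 that fell were Sec61g and Sec61b, the small subunits of the Sec61 channel, with -0.58 ± 0.06 and -0.38 ± 0.06, and Sec62, with -0.29 ± 0.07, named after their values were seen. Both genes of the nascent-chain-associated complex, a cytosolic complex at the ribosome exit, fell, Naca by 0.46 ± 0.04 and Btf3 by 0.32 ± 0.05. In the list for tail-anchored and other SRP-independent insertion, 3 rose and 4 fell of 8 tested. The 2 with the smallest p, Caml and Wrb, encode the ER membrane receptor of that route and rose by 0.64 ± 0.05 and 0.67 ± 0.06. The lower ones were Asna1, the ATPase that carries tail-anchored proteins, with -0.62 ± 0.06, and Ubl4, Get4 and Sgta, which act before it in the cytosol, with values from -0.37 to -0.17, named after their values were seen.

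**Figure D5:**
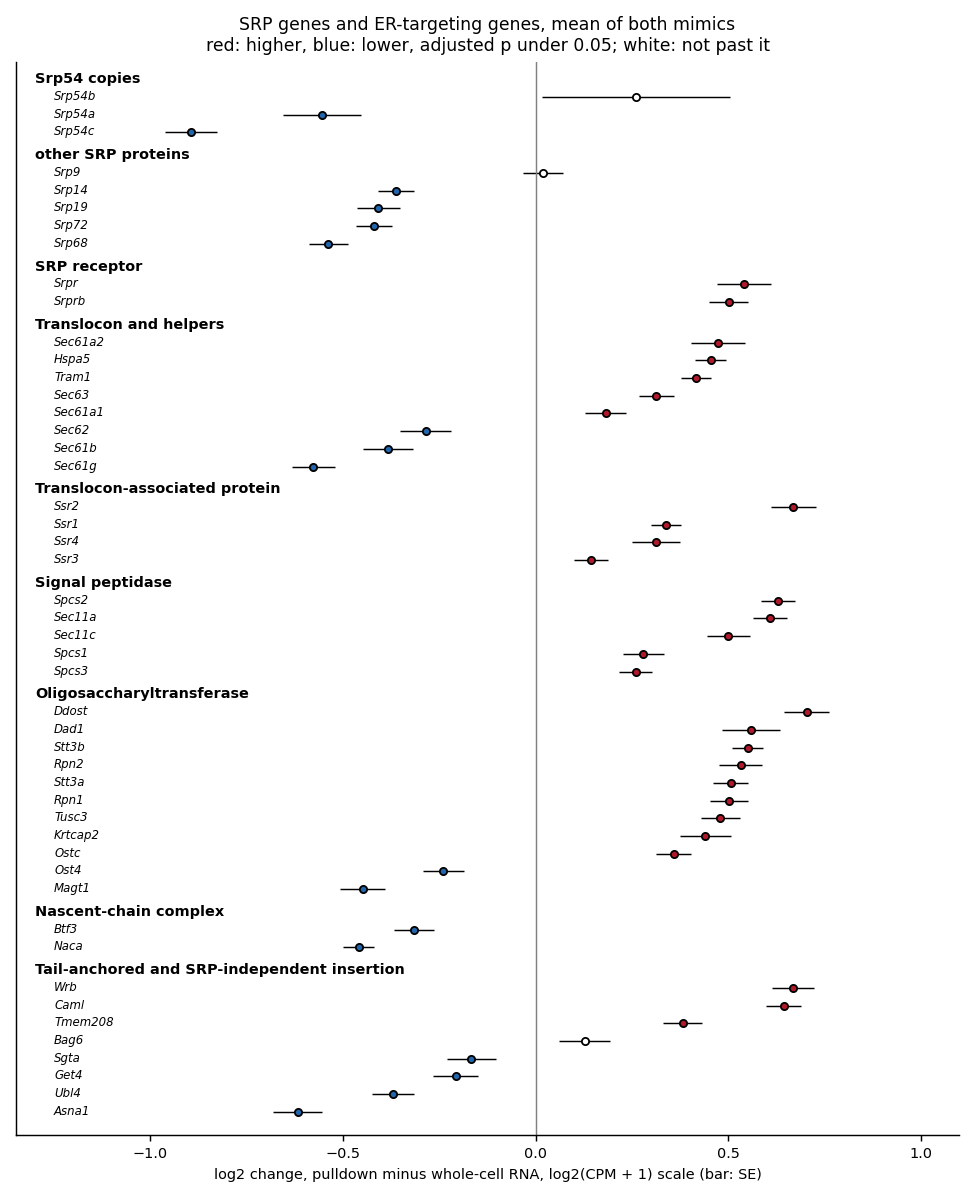
Log2 change, pulldown minus whole-cell RNA as the mean of both mimics on the log2(CPM + 1) scale, with its SE (bar), for the 10 SRP and receptor genes and the 38 tested genes of 6 ER-targeting lists. Red points rose, blue points fell and white points did not pass an adjusted p of 0.05; of the SRP proteins none is red, and of the signal peptidase and translocon-associated genes none is blue.

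Between the mimics in whole-cell RNA, 2 of these 38 genes were higher and 12 lower under miR-27a, beside 13% and 11.9% of all genes, with a median of -0.02. The largest value was that of Magt1, an oxidoreductase subunit of the oligosaccharyltransferase, at 103 ± 7.04 CPM under miR-27a and 168 ± 6.59 CPM under control mimic, a change of -0.71 ± 0.05 (adjusted p = 8.89e-11). Its paralog Tusc3 fell by 0.36 ± 0.04 (adjusted p = 1.88e-06) and Ssr3 by 0.25 ± 0.03 (adjusted p = 7.65e-06). Hspa5, Sec62, Ssr4, Spcs3, Spcs1, Btf3 and Wrb fell by 0.12 to 0.16. The 2 that rose were Dad1, an oligosaccharyltransferase subunit, with 0.28 ± 0.06 (adjusted p = 0.000526), and Sec61a2, a paralog of the main Sec61 channel subunit, with 0.33 ± 0.09 (adjusted p = 0.00906), named after their values were seen. In pulldown RNA 2 of the 38 passed, again Magt1 (-0.88 ± 0.10, adjusted p = 3.25e-05) and Tusc3 (-0.47 ± 0.09, adjusted p = 0.00293), beside 7.06% of all genes lower. For the capture difference 0 of 38 passed in limma, beside 1.07% of all genes, with 0 at an unadjusted p under 0.05 and 0 with limma voom.

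Within 200000 bases of a copy on chromosome 12, the table held 10 other genes, of which 6 were tested. Between pulldown and whole-cell RNA, 1 of the 6 rose and 4 fell, beside 36.4% and 35.9% of all genes. Ppp2r3c, a protein phosphatase 2A regulatory subunit that lies 15155 bases from the nearest copy, measured 30.9 to 35.5 CPM in pulldown miR-27a, 32.7 to 34.5 CPM in pulldown control, 42.2 to 44.6 CPM in whole-cell miR-27a and 40.0 to 45.8 CPM in whole-cell control RNA. Its change was -0.37 ± 0.05 (adjusted p = 5.06e-06), and between the mimics its ranges overlapped in both kinds of RNA. Baz1a, a chromatin remodelling subunit, fell by 0.81 ± 0.05 and the proteasome gene Psma6 by 0.54 ± 0.05. Between the mimics 1 of the 6 passed in whole-cell RNA, Psma6 (-0.19 ± 0.04, adjusted p = 0.00127), beside 24.9% of all genes. In pulldown RNA 0 of the 6 passed in limma, beside 13.1% of all genes, with 0 at an unadjusted p under 0.05 and 0 with limma voom. Fam177a, which lies between Srp54a and Srp54b, reached at most 0.3 CPM and was not tested.

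Levels were compared with Srp54b over the 12 libraries by Pearson's r of log2(CPM + 1), leaving out the copies and provisional symbols. The remaining tested genes that followed it most closely were Casc3 (0.80), Sat2 (0.79), Cd68 (0.78), Rprd1b (0.76) and Smarca2 (0.74). They were chosen as the highest of those genes. Casc3, a core protein of the exon junction complex, had the highest r of these with a far smaller span, at 19.6 to 21.2 CPM in pulldown miR-27a, 16.6 to 18.8 CPM in pulldown control, 16.7 to 18.6 CPM in whole-cell miR-27a and 16.2 to 20.6 CPM in whole-cell control RNA. For the sum of the copies the highest among the same genes were Pcyt1a (0.97), Prmt3, Usp14, Pin4 and Stam2 (0.95 to 0.96). These libraries share the 4 groups and the separation of pulldown from whole-cell RNA, so the coefficients are descriptions.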

How the data were processed

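The authors deposited log2 CPM for 20540 genes and 12 libraries. Per the series' design text, adapters were trimmed with skewer, HISAT2 aligned the reads to GRCm38, SAMtools sorted them and featureCounts (Subread) assigned them to genes, and the authors normalised the counts with edgeR. The submitters' processing notes also name mm8, without a role. Versions and the treatment of reads that match several genes are not stated. The deposited values gave CPM and whole reads back, at a prior of 0.25 reads, with 100% of values whole within 0.01 reads.

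Sample titles gave the groups and the replicate numbers. Tests used limma 3.58.1 (trend) in R 4.3.3 on log2(CPM + 1), which understates the change of low genes, over genes that reached 1 CPM in 3 or more of the fitted libraries, two-sided, with Benjamini-Hochberg adjustment over all genes tested and a threshold of 0.05. Contrasts between mimics used 6 libraries and the others used 12. Alternatives were a pseudocount of 0.25, no filter, library totals, median-of-ratios scaling, limma voom on the recovered reads, a replicate block, all 12 libraries in 1 fit, other sums of the copies and each library left out. The fits were tested on simulated data. Python 3.11.15 with numpy 2.4.6, pandas 2.3.3 and matplotlib 3.10.9 made the tables and plots.

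The members, the gene lists and the tests were chosen with earlier results of these data known. Named genes were all members, the 2 genes of each list with the smallest p in each comparison, the nearest tested neighbours of the copies together with Fam177a, and the 5 genes with the highest r to Srp54b and to the sum, leaving out provisional symbols. The comparison of transcript windows and of ratios between partners was added after values were seen. For pairing, deviations from group means over 10935 genes of at least 5 CPM were correlated: same-numbered pulldown libraries under the 2 mimics gave r of 0.22, 0.41 and 0.18, each the best match of its number, and whole-cell libraries gave 0.02, -0.07 and -0.01, so every pair between the mimics was over 0.1 in pulldown and none was in whole-cell RNA. Same-numbered pulldown and whole-cell libraries gave 0.04, 0.25 and 0.22 under miR-27a and -0.09, -0.17 and 0.03 under control mimic, so not every pair was over 0.1. The pairing comes from this check and not from the labels. The summed level of the oligodendrocyte markers is not reported here.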

Additional observations from a re-analysis of the deposited data

How the results depend on the processing

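Every call on the members kept its direction and its side of the threshold under every alternative run, apart from the following. In whole-cell RNA, the call on Srp19 was lost with all 12 libraries in 1 fit (-0.21, adjusted p = 0.0989; range over the alternatives 0.00205 to 0.0989), and Srp14 passed with median-of-ratios scaling (-0.11, adjusted p = 0.0438; range 0.0438 to 0.464). Between pulldown and whole-cell RNA, the sum of Srp54a and Srp54b alone gave -0.19 and did not pass (adjusted p = 0.227; range for the sum 1.61e-10 to 0.227), as it leaves out Srp54c. Values near 0 that were never called changed sign in whole-cell RNA for Srprb with library totals (0.0088) and for Srp68 with median-of-ratios scaling (-0.0074).

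Between the mimics, the sum of Srp54a and Srp54b alone gave -0.52 in whole-cell and 0.73 in pulldown RNA, and that of Srp54a and Srp54c alone 9e-04 and -0.0505, by which copies they hold. For the capture difference the sum gave 1.249 with Srp54a and Srp54b, 0.71 with Srp54b and Srp54c and -0.0513 with Srp54a and Srp54c.

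Genes past the threshold over the whole table were 1415 in place of 3335 in whole-cell RNA with all 12 libraries in 1 fit, and 3051 in place of 1781 in pulldown RNA. With the replicate block, 2743 passed in pulldown RNA, and the block changed no call on a member. For the capture difference 73 passed without the filter, in place of 149; with median-of-ratios scaling 53 were higher and 72 lower, in place of 47 and 102. Scaling also moved the split of higher and lower genes: with library totals 5929 were higher and 4015 lower between pulldown and whole-cell RNA, in place of 5048 and 4986, and 925 higher and 823 lower between the mimics in pulldown RNA, in place of 822 and 959. With median-of-ratios scaling 1489 were higher and 1883 lower between the mimics in whole-cell RNA, in place of 1736 and 1599. The cause of these shifts was not tested.

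With 1 library left out at a time, Srp54b ran from -1.79 to -1.05 in whole-cell RNA, 0.83 to 1.51 in pulldown RNA and 2.24 to 2.98 for the capture difference, and its sign held in each. Srp54a, never tested between the mimics, ran from 0.19, without whole-cell control replicate 1, to 0.40 in whole-cell RNA and from -0.11 to 0.12 in pulldown RNA, where library totals (0.0108) and limma voom (0.0161) also turned its sign. Srp54c ran from -0.15 to -0.0105 and from -0.14 to -0.0016. The sum ran from -0.33 to -0.17, 0.22 to 0.35 and 0.46 to 0.62 in the same order. In whole-cell RNA, Srpr ran from -0.0402 to 0.12, Srp68 from -0.0102 to 0.0511, Srp72 from -0.0477 to 0.0021 and Srprb from -0.0163 to 0.0129. In pulldown RNA, Srpr ran from -0.0529 to 0.12, Srp9 from -0.0809 to 0.0406 and Srp68 from -0.0724 to 0.0296. For the capture difference, Srpr ran from -0.0976 to 0.0767, Srp9 from -0.0219 to 0.12 and Srp68 from -0.0844 to 0.0177, and between pulldown and whole-cell RNA Srp9 from -0.0139 to 0.0548. Counts over the whole table ran from 2379 to 3294 in whole-cell RNA, 969 to 2691 in pulldown RNA and 43 to 473 for the capture difference. The count in pulldown RNA was highest without pulldown miR-27a replicate 2, and fell to 1029 without pulldown miR-27a replicate 3 and to 1002, 1180 and 969 without pulldown control replicates 1, 2 and 3. The capture count rose to 359 with pulldown miR-27a replicate 1 left out and to 473 with its replicate 2 left out. It was 90 with pulldown control replicate 1 left out and 49 with its replicate 3 left out. Leaving out replicate 1, 2 or 3 of whole-cell miR-27a gave 57, 66 or 43, and leaving out replicate 1 or 3 of whole-cell control gave 54 or 53.

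Srp54b rests on 42 to 303 reads a library, and no alternative bears on how reads common to the copies were divided among them.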
